A study of Mus musculus with 6 samples.

Results

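The core histone genes of the replication-dependent clusters were examined in RNA sequencing of mouse embryonic stem cells (mESCs). They were picked out by a pattern of gene names: 60 of the 55385 genes in the count table carry a cluster name of the older form (Hist1h2bp, for example) or of the newer form (H2bc4, for example), with names of pseudogene form left out. The 60 genes comprise 19 of class H2A, 17 of H2B, 12 of H3 and 12 of H4. On GRCm38, 50 lie on chromosome 13 and are counted here as Hist1, and 10 belong to the Hist2 cluster on chromosome 3. Of the 50, Hist1h2al lies apart from the cluster, at chr13:51202727-51203065, while the others start between 21715763 and 23934462. The annotation (GENCODE M21) lists 58 as protein coding and 2, H2ac14 and Hist1h2al, as pseudogenes. The linker histone genes of the clusters, and the core histone genes H2bu2, H2aw and H4f16, bear other names and are not among the 60.

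The cells were G4 mESCs of 129/Sv × C57BL/6 F1 hybrid origin, and all genotypes were maintained with LIF on a layer of CD1 feeder cells. Wild-type (WT) cells were compared with cells that carry a CRISPR-Cas9 deletion of the *Wnt6* anchor, a region that forms long-range Polycomb loops, on 1 allele (heterozygous, het) or on both alleles (homozygous, hom). Edited lines were picked as individual clones, so clone and genotype cannot be told apart. The labels give 2 replicate libraries of each genotype while the methods state 3 per condition, and nothing says that replicates came from separate cultures, so p-values measure the spread between these libraries, which may be technical. The libraries held between 23813912 and 28964706 counts. *Wnt6* itself had 11 and 13 counts in WT, 6 and 4 in het and 0 in both hom libraries.

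Replication-dependent histone genes supply the nucleosome proteins that package newly made DNA, and they are transcribed mainly in S phase. Their mRNAs are the known exception among metazoan mRNAs in that most end not in a poly(A) tail but just after a conserved stem-loop, which is bound by the stem-loop binding protein SLBP. Some of these genes can also give longer, polyadenylated transcripts, which are described in differentiating and non-dividing cells. The libraries here were prepared from poly(A) RNA with a stranded kit, and that selection does not retain transcripts that end at the stem-loop.

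The stem-loop was looked for in the annotated transcripts, as 16 bases that pair in the histone pattern within the first 100 bases after the stop codon. It was present in 39 of the 44 coding members with at least 16 bases annotated there, and in 2 of 21017 other protein-coding genes, a background that leaves out 9 further histone genes of the clusters, such as the linker genes. The first base of the stem-loop lay between 21 and 58 bases after the stop codon. Sites from the highest members with a stem-loop in each class, and from H4c4 with the commonest H4 stem-loop, are printed 5′ to 3′ as the DNA letters of the transcript, because they mark where the mRNA without a tail ends. The 16 bases of the stem-loop are in capitals.
H4c9: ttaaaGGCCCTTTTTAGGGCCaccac
H2bc11: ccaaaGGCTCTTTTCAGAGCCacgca
H3c2: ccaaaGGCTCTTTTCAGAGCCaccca
H3c3: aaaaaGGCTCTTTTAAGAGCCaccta
H2ac4: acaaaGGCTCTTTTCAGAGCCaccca
H4c4: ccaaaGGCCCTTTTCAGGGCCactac
The core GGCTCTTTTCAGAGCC was shared by 21 members, of which 9 are H2A, 7 are H2B, 5 are H3 and 0 are H4. The H4 genes carried other cores, the most frequent being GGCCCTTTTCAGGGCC in 6 of them. A poly(A) signal (AATAAA or ATTAAA) within the last 50 bases of a transcript was found in 12 of the 60 members and in 80.5% of the other protein-coding genes. The member with the most counts, H2bc4, is annotated with 742 bases after its stop codon and with neither a stem-loop nor such a poly(A) signal.

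The members are also alike at the base level, which bears on how reads can be assigned. All 12 H4 genes encode 1 identical protein, the 12 H3 genes encode 3, the 17 coding H2A genes encode 8 and the 17 H2B genes encode 11. The median member shared 62.0% of its 50-base windows with other genes, and 45.65% of its 100-base windows. Matches on either strand were counted, so a gene annotated across the same locus also counts, even on the opposite strand. In 14 members over 90% of the 50-base windows were shared. Their median total over the 6 libraries was 0 counts and their highest was 13. The 5 members in which every such window is shared (H2ac18, H2ac19, H3c13, H3c14 and H2bc18) had 0 counts. Of these, H2bc18 shared windows with only 2 genes, and the annotated genes Gm42743 and Gm20628 overlap it. How reads that match several genes were treated is not given in the sources used here. Counts of zero in members with shared windows thus do not separate a silent gene from reads that were not assigned. In the 11 members with under 30% shared windows, the median total was 34 counts and the range 0 to 446.

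Promoter sequences of RefSeq (GRCm38.p6, from 250 bases before to 50 bases after the start) were matched for 53 members. Histone promoters are known for an octamer that binds POU factors, in H2B genes above all, and for TATA and CCAAT boxes. The octamer ATTTGCAT, read on both strands, occurred in 6 of 17 H2A, 7 of 15 H2B, 0 of 10 H3 and 0 of 11 H4 promoters, and in 1.70% of 32788 other promoters. CCAAT, read on both strands, occurred in every promoter of the H2A, H2B and H3 classes, in 3 of 11 of the H4 class and in 37.3% of the others. TATAAA on the gene's strand occurred in 25 of the 53 and in 8.24% of the others. Some H2A and H2B genes lie on opposite strands with overlapping promoter windows, so a site read on both strands can count in both classes. The octamer of H2ac1 and H2bc1, of H2ac8 and H2bc8, and of H2ac12 and H2bc12 was counted in this way. None of the 3 motifs contains another, and a match describes the sequence only.

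Most members were barely detected. All 60 together received 2868 counts, or 0.00185% of all counts, and the median member had 10.5 counts over the 6 libraries. There were 12 members with no count in any library, which allows up to 3 counts in each, or between 0.102 and 0.131 CPM. CPM here means read counts relative to the library's total, in units of 1000000, after TMM scaling for composition, and such limits cover counting error alone. Another 17 had counts but never more than 3 in a library, which makes 29 members at or below the floor throughout. Of all counts on members, 47.6% fell on H2bc4 and 15.6% on H4c9. For comparison, the genes H2az1, H2az2, H2ax, H2aj, H3f3a and H3f3b, listed here as replication-independent variants, together stood at 1496 ± 21.8 CPM (SD, n = 2) in WT. That was 70.5 times the 21.2 ± 0.943 CPM of all 60 members.

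**Figure D1:**
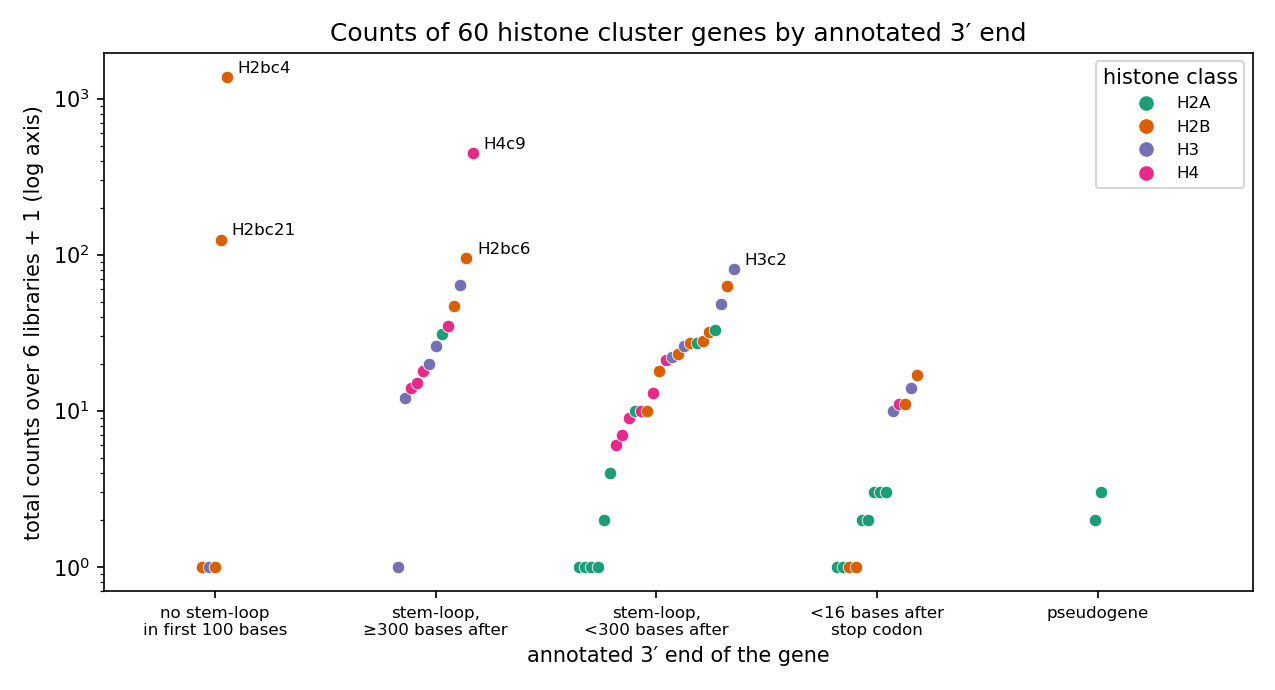
Total counts over the 6 libraries plus 1 (vertical log axis) for each of the 60 members (points, colored by histone class), grouped by the annotated 3′ end of the gene. H2bc4 with 1365 counts and H4c9 with 446 stand above the others, and members with fewer than 16 bases annotated after the stop codon reach 16 counts at most.

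The plot of counts by annotated 3′ end groups the members by the end of their transcripts, and the groups overlapped widely. The 5 members without a stem-loop in the window had a median of 0 counts and a range of 0 to 1365. Of these, Hist1h2bq and Hist1h2br have 1608 and 1803 annotated bases after the stop codon and 0 counts. H3c13 also had 0 counts. These 3 members shared over 90% of their 50-base windows, so their zeros do not separate a silent gene from unassigned reads. The others were H2bc4 and H2bc21, with 1365 and 124 counts. The 13 members with a stem-loop and at least 300 annotated bases after it had a median of 25 counts and a range of 0 to 446. The 26 with a stem-loop and a shorter end had a median of 14.5 and a range of 0 to 80. The 14 members with fewer than 16 bases annotated after the stop codon had a median of 2 and a range of 0 to 16. The 2 pseudogenes had 1 and 2 counts. Counts also scale with length, and per kilobase of annotated exon the groups with a stem-loop had medians of 0.143 (longer ends) and 0.172 CPM (shorter ends), the reverse of their order by counts. Members with a poly(A) signal had a median of 0.140 CPM per kb and those without one a median of 0.113.

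By level per length, H2bc4 was first with 7.57 CPM per kb, and its libraries spanned 5.49 to 9.45. H4c9 was second with 3.98 CPM per kb and a span of 3.23 to 4.63, which does not overlap that of H2bc4. H2bc11 (0.861, span 0.649 to 1.04) and H3c2 (0.820, span 0.454 to 1.45) followed, lay below H4c9 in every library and did not differ from each other beyond their spread. The next members were H3c3 at 0.471, H2bc3 at 0.393, H2ac4 at 0.351, H2bc14 at 0.323, H3c4 at 0.320, H2bc21 at 0.309, H2bc12 at 0.304 and H3c8 at 0.298 CPM per kb, and the spans of neighbors in this order overlapped. H2ac4 was the highest H2A gene by this measure, but its span overlapped that of H2ac8 (0.296), and per coding kilobase H2ac8 (0.533) and H2ac6 (0.478) lay above it (0.426). At the low end, 6 H2A, 4 H2B and 2 H3 genes had no counts, while every H4 gene had some and H4c14 was the lowest at 0.0553 CPM per kb of exon, while per coding kilobase H4c2 was the lowest at 0.102 and H4c14 stood at 0.292. With coding length in place of exon length, 8 of these 12 members were again among the highest 12.

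Only 9 members had at least 10 counts in at least 2 libraries and were tested, 15.0% of the 60 against 30.6% of all genes. They are 5 H2B genes (H2bc4, H2bc6, H2bc9, H2bc11 and H2bc21), 3 H3 genes (H3c2, H3c3 and H3c4) and the H4 gene H4c9. No H2A gene was tested. The tests below are those of edgeR's quasi-likelihood model fitted to 16951 genes, with Benjamini-Hochberg adjustment over all of them. The comparisons share libraries: both deletions are set against the same WT libraries, and the hom libraries enter both the second and the third comparison. In bulk RNA, fewer cells of a type and less RNA per cell cannot be told apart.

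H2bc4 (Hist1h2bc, ENSMUSG00000018102, chr13:23684199-23692908, plus strand) encodes an H2B protein. Of its 50-base windows 30.6% were shared, and the genes sharing at least 1 of them numbered 220. Reads from such windows may be unassigned or come from another gene. H2bc4 had 286 and 279 counts in WT, 221 and 244 in het and 170 and 165 in hom. These correspond to 9.74 and 10.9 CPM in WT, 8.88 and 9.17 in het and 7.42 and 6.34 in hom. The WT libraries were the highest, the hom libraries the lowest, and no genotypes overlapped. In hom against WT the level fell by 0.59 on the log2 scale (SE 0.113, adjusted p = 0.000691). In hom against het it fell by 0.40 (SE 0.116, adjusted p = 0.0163). In het against WT the log2 difference was -0.19 (SE 0.106, adjusted p = 0.401), which did not pass the test. The difference between hom and WT passed in every alternative fit, although it is below the added threshold of 1 on the log2 scale. That between hom and het did not pass with DESeq2 (adjusted p = 0.107), without het replicate 2 (0.0868) or without hom replicate 2 (0.134).

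H4c9 (Hist1h4i, ENSMUSG00000060639, chr13:22040636-22041362, minus strand) encodes histone H4, and is one of 9 members with both a stem-loop and a poly(A) signal near the annotated end, 330 bases of transcript after the stem-loop. It had 69 and 67 counts in WT, 70 and 83 in het and 77 and 80 in hom, or 2.49 ± 0.195, 2.97 ± 0.216 and 3.22 ± 0.204 CPM (SD, n = 2). The WT libraries were the lowest, and het and hom overlapped. The log2 differences were 0.37 in hom against WT (SE 0.176, adjusted p = 0.148), 0.26 in het against WT (SE 0.177, adjusted p = 0.513) and 0.11 in hom against het (SE 0.172, adjusted p = 0.683). None passed the test.

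**Figure D2:**
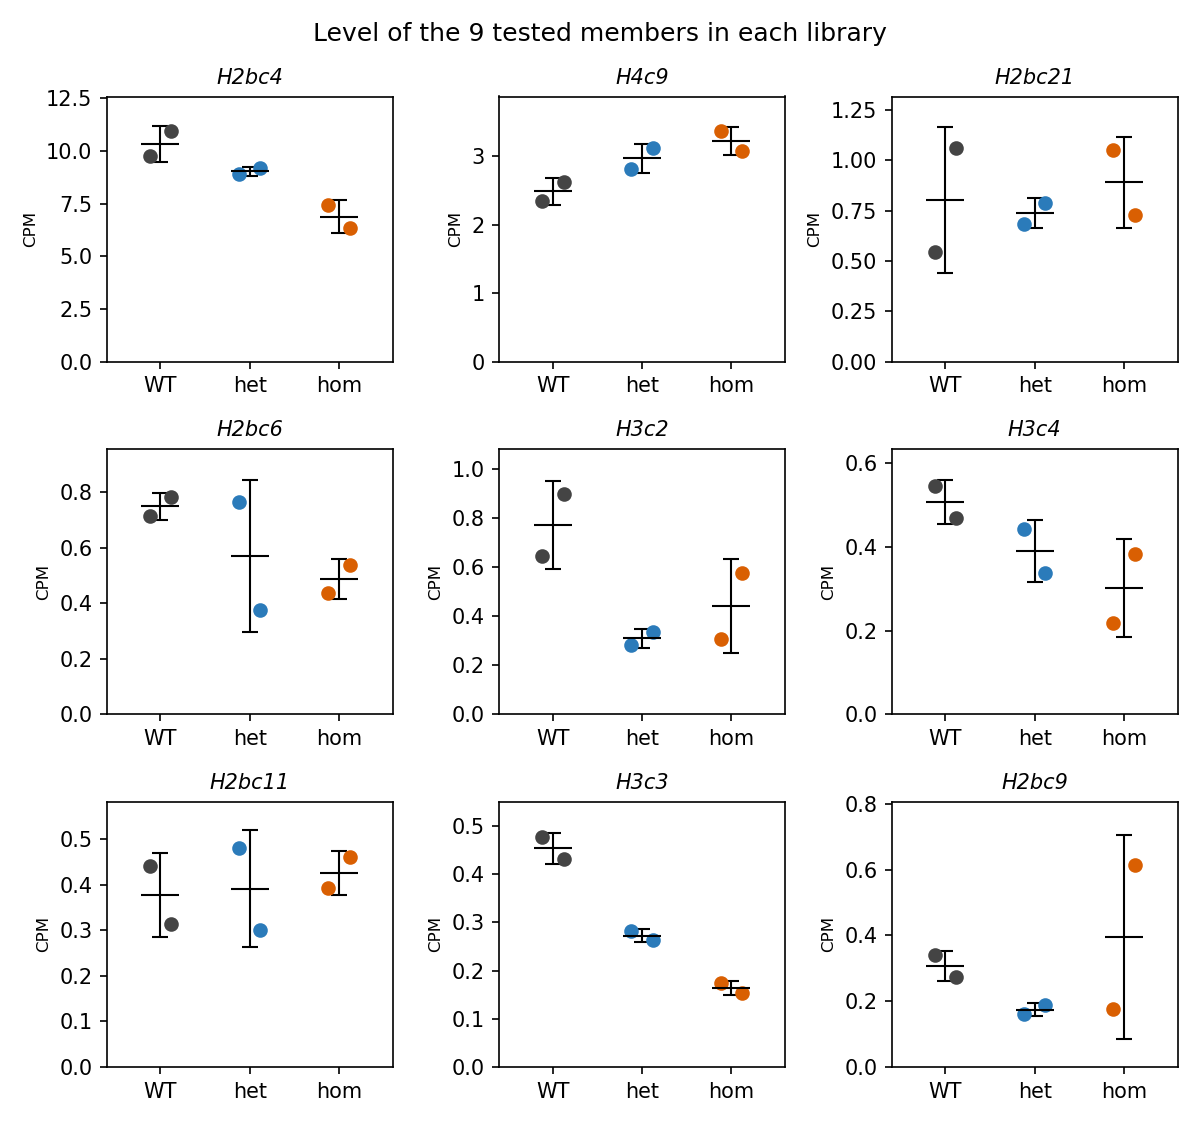
CPM of the 9 tested members (one panel each) in WT, het and hom cells, with points for the 2 libraries of each genotype and a bar and whiskers for their mean ± SD. H2bc4 declined from 10.3 in WT to 9.03 in het and 6.88 CPM in hom without overlap of genotypes, while H4c9 ran from 2.49 to 3.22 and the other 7 were near or below 1 CPM.

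The 3 tested H3 genes had few counts. H3c3 had 14 and 11 counts in WT, 7 and 7 in het and 4 and 4 in hom, so that the genotypes did not overlap. Its log2 difference in hom against WT was -1.45 (SE 0.539, adjusted p = 0.0626), which did not pass. H3c3 reached the 10 counts required for testing through its WT libraries alone, so the choice of tested genes favored a lower level in the deletions. The same holds for H3c2 in het against WT. H3c2 had 19 and 23 counts in WT, 7 and 9 in het and 7 and 15 in hom. Both WT libraries were the highest, and the log2 difference in het against WT was -1.29 (SE 0.437, adjusted p = 0.107). H3c4 had 16 and 12 counts in WT, 11 and 9 in het and 5 and 10 in hom, with a log2 difference of -0.73 in hom against WT (SE 0.470, adjusted p = 0.311).

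The other tested H2B genes went different ways. H2bc6 had 21 and 20 counts in WT, 19 and 10 in het and 10 and 14 in hom, and a log2 difference of -0.60 in hom against WT (SE 0.403, adjusted p = 0.330). It overlaps Hist1h1e, a linker histone gene, on the same strand, so reads of one could be counted for the other. H2bc21, in the Hist2 cluster, had 16 and 27 counts in WT, 17 and 21 in het and 24 and 19 in hom, and H2bc11 had 13 and 8, 12 and 8, and 9 and 12. Their genotypes overlapped in every comparison. H2bc9 had 10 and 7 counts in WT, 4 and 5 in het, and 4 and 16 in hom, so 1 hom library held 4 times the counts of the other. Its log2 difference in hom against het was 1.20 (SE 0.631, adjusted p = 0.177).

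**Figure D3:**
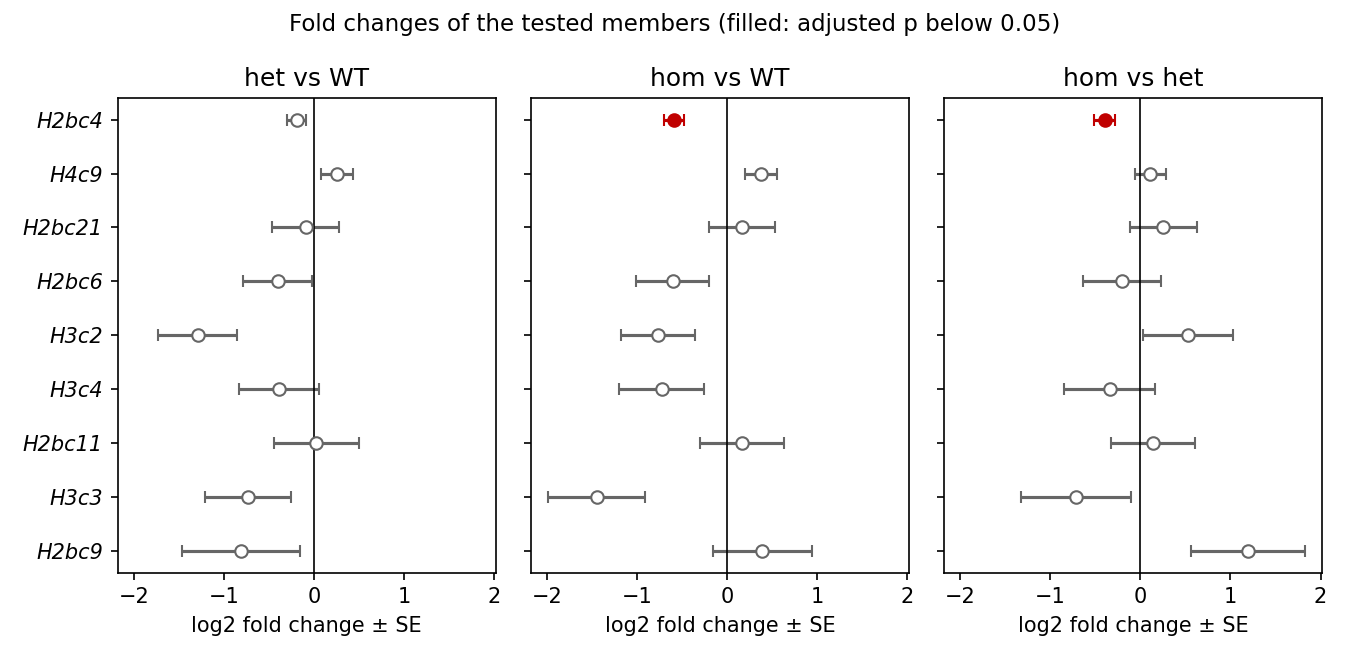
Fitted log2 fold change ± SE (horizontal axis) of the 9 tested members in the 3 comparisons, het against WT, hom against WT and hom against het, with filled points where the adjusted p was below 0.05. H2bc4 is the filled point in hom vs WT (-0.59) and in hom vs het (-0.40), and the SEs of the low-count genes reach 0.65.

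In het against WT, 0 of the 9 tested members passed in either direction. Of all tested genes, 2.23% passed as higher and 2.91% as lower. At an unadjusted p below 0.05 the count was 1 of 9, against 16.3% of all genes, and DESeq2 also called 0. In hom against WT, 1 passed as lower, with 10.5% of all genes lower, and 0 as higher, with 10.9% higher. In hom against het, 1 passed as lower and 0 as higher, with 12.9% of all genes in each direction. At an unadjusted p below 0.05 there were 3 of 9 in hom against WT (H2bc4 and H3c3 lower, H4c9 higher), against 32.5% of all genes, where H3c3 was tested only through its WT libraries, and 1 of 9 in hom against het, against 36.9%. Called shares of 1 in 9 are close to these backgrounds. With an absolute log2 fold change above 1 required as well, 0 members passed in any comparison, with 0.165% of all genes in het against WT, 2.14% in hom against WT and 1.39% in hom against het. The median log2 fold change of the 9 was -0.39, -0.59 and 0.11 in the 3 comparisons, where that of all tested genes was 0.00, -0.01 and -0.02. These medians rest on a few counts per gene, and their sign in the third comparison changed with the filter on low counts. H3c3, and H3c2 in het against WT, met the filter through WT libraries, so the choice of tested genes favored negative medians against WT. With at least 10 counts in all 6 libraries, 4 members were left. Their medians were -0.14 in het against WT and -0.22 in hom against WT.

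Summed over members, the levels were lower in the deletion cells than in WT. All 60 stood at 21.2 ± 0.943 CPM in WT, 18.2 ± 0.288 in het and 15.8 ± 0.845 in hom (SD, n = 2 each), and no genotypes overlapped. Without H2bc4 and H4c9, the other 58 members summed to 8.48 and 8.34 CPM in WT, 6.67 and 5.67 in het and 5.59 and 5.77 in hom, so that WT was above both deletions and these overlapped. Over the 51 members too low to be tested, the sums were 4.77 and 4.11 CPM in WT, 3.58 and 3.08 in het and 2.84 and 2.31 in hom. Of the 48 members with any count, the hom mean was below the WT mean in 34 and above it in 11, and the het mean was below it in 31 and above it in 17. Most of these members had only a few counts. Of all tested genes 51.1% had a log2 fold change below 0 in hom against WT, with a median of 0.00 in het against WT. These background values cover tested genes only, while most of the 48 members were too low to be tested. A share over all genes with any count is not given here. Whether the 48 members differ from other genes at such low counts was therefore not tested. No test was made of these sums, since they pool genes that share sequence.

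By class, H3 genes summed to 2.72 ± 0.142 CPM in WT, 1.71 ± 0.0814 in het and 1.53 ± 0.181 in hom (SD, n = 2). H2A genes summed to 0.964 ± 0.0334, 0.638 ± 0.107 and 0.531 ± 0.00992 CPM from only 112 counts in all. H2B genes without H2bc4 summed to 3.47 ± 0.241, 2.95 ± 0.607 and 2.92 ± 0.0546 CPM. H4 genes without H4c9 summed to 1.25 ± 0.160, 0.877 ± 0.124 and 0.701 ± 0.121 CPM, while with H4c9 the class stood at 3.74 ± 0.0350, 3.84 ± 0.0918 and 3.92 ± 0.325. H4c9 set the direction of the H4 sum. The 10 genes of the Hist2 cluster summed to 1.21 ± 0.506 CPM in WT and 0.993 ± 0.263 in hom, within their spread.

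The linker histone gene H1f2 (Hist1h1c, chr13:23738808-23740367, plus strand) lies in the same cluster outside the 60 and was singled out after its values were seen. It had 203 and 203 counts in WT, 174 and 170 in het and 110 and 109 in hom. It fell by 0.72 on the log2 scale in hom against WT (SE 0.132, adjusted p = 0.000429) and by 0.58 in hom against het (SE 0.136, adjusted p = 0.00371). In het against WT its log2 difference was -0.15 (SE 0.121, adjusted p = 0.611). Its annotated transcript has a stem-loop, 840 bases after it and a poly(A) signal. Of the tested cluster histone genes outside the 60, H1f2 alone passed in any comparison. The log2 differences in hom against WT were -0.92 for H1f1 (adjusted p = 0.163) and -0.61 for H1f3 (0.447). They were -0.27 for H2aw (0.679) and -0.05 for H2bu2 (0.897).

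Markers of fibroblasts, the cell type of a feeder layer, moved in the same order as H2bc4. The 31 fibroblast markers, collagens and other matrix genes among them, summed to 6693 and 6656 CPM in WT, 5216 and 5221 in het and 3753 and 3716 in hom, and none was at 0. Of 30 tested, 27 were lower in hom against WT and 0 higher, 22 were lower and 1 higher in het against WT, and 26 were lower and 1 higher in hom against het. The median log2 fold changes of the 30 were -1.02, -0.46 and -0.59 in that order. Of all tested genes, 10.5% were lower and 10.9% higher in hom against WT, and 2.91% and 2.23% in het against WT. In hom against het 12.9% of all tested genes passed in each direction. The hom to WT ratio of mean levels was 0.560 for the marker sum, 0.666 for H2bc4, 0.605 for H1f2 and 0.675 for the 58 members without H2bc4 and H4c9. For all 60 members it was 0.743. H4c9 went the other way, with a ratio of 1.29, a rise that did not pass the test. Whether the marker transcripts came from feeder cells, and their part in the histone differences, was not tested. The 10 pluripotency markers, which identify the stem cells, were all detected and summed to 3267 and 3329 CPM in WT, 3020 and 2968 in het, and 3462 and 3272 in hom. Of the 10, 6 were lower and 0 higher in het against WT, and 1 was lower and 1 higher in hom against WT. In hom against het 0 were lower and 8 higher. DESeq2 called 0 lower in hom against WT, and the 8 became 4 with scaling by total counts only.

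**Figure D4:**
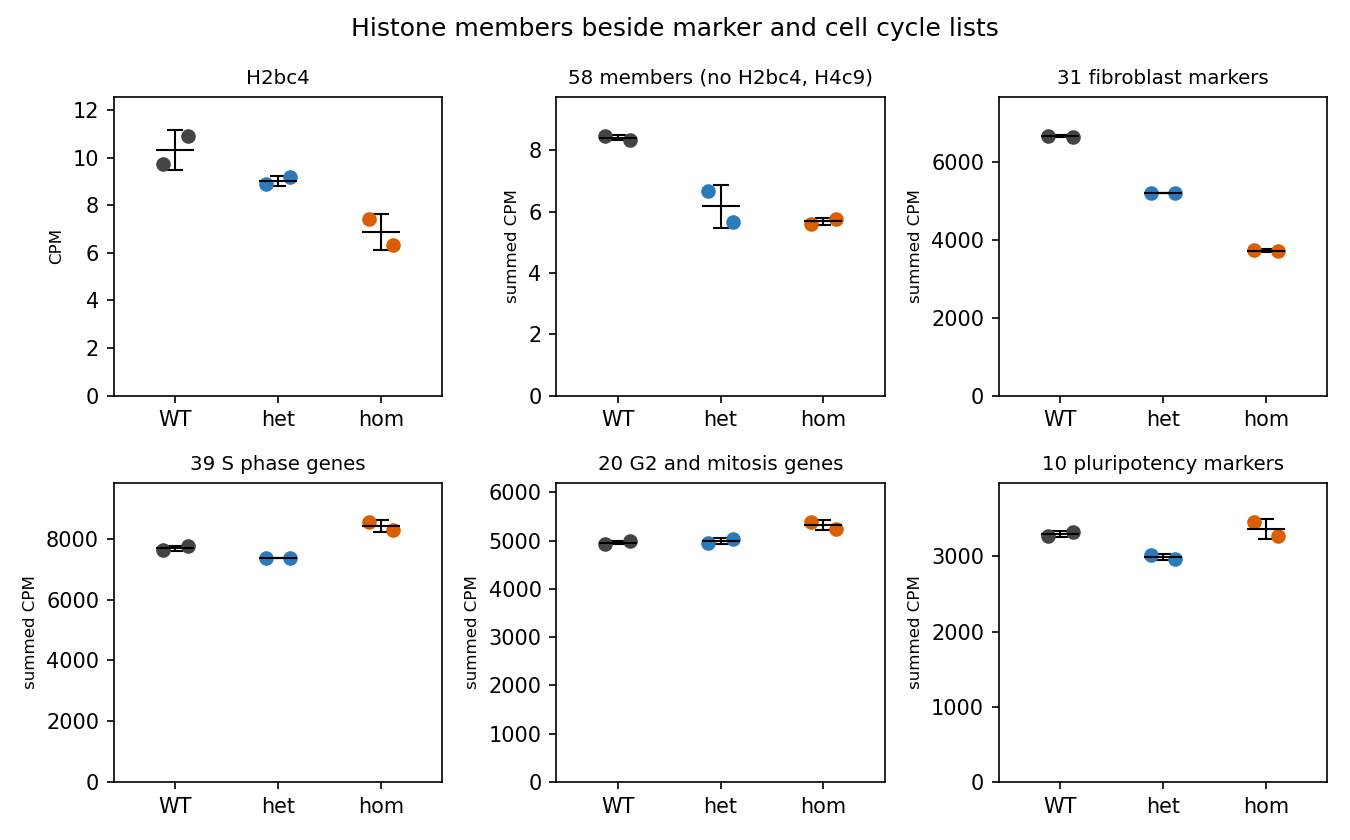
CPM of H2bc4 and summed CPM of the 58 members without H2bc4 and H4c9, of 31 fibroblast markers, 39 S phase genes, 20 G2 and mitosis genes and 10 pluripotency markers (one panel each), with points for libraries and mean ± SD. Fibroblast markers declined stepwise from WT to hom like H2bc4, whereas the S phase sum was highest in hom at 8282 to 8565.

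The sum over S phase genes was highest in hom, where the sum over the 60 histone members was lowest. In het both sums were below those of WT. For the counts below, 10.9% of all tested genes were higher and 10.5% lower in hom against WT. In hom against het 12.9% of all tested genes passed in each direction, and in het against WT 2.23% were higher and 2.91% lower. The 39 S phase genes summed to 7631 and 7755 CPM in WT, 7372 and 7374 in het and 8565 and 8282 in hom. In hom against WT 16 rose and 2 fell (E2f1 and Gins1), with 0 falls in DESeq2 and without hom replicate 2, and 1 without any other library. Mcm5, a subunit of the replicative helicase, rose by 0.49 on the log2 scale (adjusted p = 1.57e-08) from 587 ± 5.31 to 827 ± 27.9 CPM. Gins2, another helicase component, rose by 0.50 (adjusted p = 9.75e-07), and so did Ccne2, a cyclin of S phase entry, by 0.43 (adjusted p = 2.65e-05), and Cdt1, which loads the helicase, by 0.30 (adjusted p = 0.000480). The count of 16 became 10 with scaling by total counts only and 7 without WT replicate 1. In hom against het 18 rose and 0 fell, among them Mcm5 by 0.72 and the flap endonuclease gene Fen1 by 0.48 (adjusted p = 0.00733). In het against WT 2 fell, Mcm5 by 0.23 (adjusted p = 0.00127) and Cdt1 by 0.22 (adjusted p = 0.0237), and 0 rose. The fall of Cdt1 did not pass without WT replicate 1, WT replicate 2 or het replicate 2 (adjusted p = 0.261, 0.0722 and 0.450), nor the rise of Fen1 without het replicate 2 (0.118) or hom replicate 1 (0.0827). Of the 20 genes of G2 and mitosis, 6 rose and 0 fell in hom against WT, 9 rose and 1 fell in hom against het, and 0 passed in het against WT. The 6 became 3 with scaling by total counts only and without WT replicate 1, and the 9 became 3 with that scaling and 3 to 5 without het replicate 1, het replicate 2 or hom replicate 1. The 1 fall was lost without het replicate 1 and without hom replicate 1.

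Among genes that make and mature histone mRNA, Slbp, which binds the stem-loop, stood at 122 ± 1.47 CPM in WT, 116 ± 0.844 in het and 136 ± 2.13 in hom (SD, n = 2). It rose by 0.16 on the log2 scale in hom against WT (adjusted p = 0.0116) and by 0.24 in hom against het (adjusted p = 0.000475). Npat, the histone gene coactivator, rose by 0.25 in hom against WT (adjusted p = 0.000803) and by 0.15 in hom against het (adjusted p = 0.0259). The Slbp rise over WT did not pass with scaling by total counts only (adjusted p = 0.0826) or without WT replicate 1 (0.118). The Npat rise over het did not pass with DESeq2 (0.0591), with scaling by total counts only (0.190) or without het replicate 1, het replicate 2 or hom replicate 1 (0.0713 to 0.104). Casp8ap2, a protein of histone locus bodies, and Lsm10 and Lsm11, subunits of the U7 ribonucleoprotein that guides cleavage after the stem-loop, passed in no comparison. Their log2 differences in hom against WT were 0.11, 0.05 and -0.02. Eri1, the exonuclease that trims and degrades histone mRNA, was at 81.9 ± 0.618 CPM in WT, 72.4 ± 0.944 in het and 118 ± 1.98 in hom. It rose by 0.52 in hom against WT (adjusted p = 4.54e-08) and by 0.70 in hom against het (adjusted p = 1.09e-09), and it fell by 0.18 in het against WT (adjusted p = 0.0290). That fall did not pass with DESeq2 (0.0718) or without any one of the WT and het libraries (0.0900 to 0.235).

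Over the whole list of 23 genes of histone mRNA processing and transcription, 6 rose and 1 fell (Ncbp2, of the cap-binding complex) in hom against WT. In hom against het 7 rose and 0 fell, and in het against WT Eri1 alone passed. Upf1, an RNA helicase that acts in histone mRNA decay, rose by 0.33 in hom against WT (adjusted p = 3.19e-05), and Cpsf2, of the cleavage complex, by 0.22 (adjusted p = 0.000953). The median of the list was 0.06 in hom against WT. Of 13 further genes of polyadenylation and 3′ end cleavage, 2 rose in hom against WT, 3 rose in hom against het and 0 passed in het against WT. For both lists, 10.9% of all tested genes were higher and 10.5% lower in hom against WT. In hom against het 12.9% of all tested genes passed in each direction, and in het against WT 2.23% were higher and 2.91% lower. In the processing list, the 7 rises in hom against het became 4 with scaling by total counts only, which added 1 fall, and 4 without het replicate 1. The fall of Ncbp2 in hom against WT was called in none of the fits without a WT or hom library, nor by DESeq2, while scaling by total counts only called 3 falls, and the rises among polyadenylation genes came to 1 in several fits.

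Of 11 tested genes listed as replication-independent histone variants, 3 rose and 0 fell in hom against WT. Of all tested genes, 10.9% were higher and 10.5% lower there, and the median of the list was 0.01. With scaling by total counts only, 1 was called lower. H2az1, which encodes the variant H2A.Z, rose by 0.21 on the log2 scale (adjusted p = 0.00208) from 419 ± 3.02 to 486 ± 22.8 CPM. Macroh2a2 rose by 0.30 (adjusted p = 0.00144) and H3f3a, which encodes H3.3, by 0.17 (adjusted p = 0.0195). The H3f3a rise did not pass with scaling by total counts only (0.0888), without WT replicate 1 (0.248) or without hom replicate 1 (0.200). In hom against het 4 rose and Cenpa, the centromeric H3 variant, fell by 0.19 (adjusted p = 0.00244), beside 12.9% of all genes in each direction. In het against WT 0 passed, while DESeq2 and 7 other alternatives called 1 lower.

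Of 26 histone chaperone genes, whose proteins carry new histones to DNA, 4 rose and 0 fell in hom against WT, beside the 10.9% of all genes that were higher, and the list's median log2 fold change was 0.05. In hom against het 6 rose and 0 fell, beside 12.9% of all genes in each direction. In het against WT 0 of 26 passed with edgeR and with DESeq2, and 5 of the other alternatives called 1 higher. Asf1b, a chaperone of H3 and H4, rose by 0.43 in hom against WT (adjusted p = 1.63e-05) and by 0.55 in hom against het (adjusted p = 8.31e-07). Its paralog Asf1a rose by 0.19 (adjusted p = 0.0150), and the 2 subunits of the chaperone FACT, Ssrp1 and Supt16, rose by 0.20 and 0.24 in hom against WT (adjusted p = 0.00131 and 0.000227). Asf1a did not pass in hom against WT with scaling by total counts only (0.0838) or without WT replicate 1 (0.195). For these genes the hom libraries, with the lowest fibroblast marker sums, had the highest levels. The het libraries also had lower marker sums than WT. There Asf1b stood at 32.42 CPM and Asf1a at 62.67, against 35.15 and 64.55 in WT. Ssrp1 and Supt16 stood at 582 and 390 CPM in het against 581 and 383 in WT. The part of the cells that express those markers in these rises was not tested.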

How the data were processed

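RNA was sequenced from 6 mESC libraries, 2 for each of 3 genotypes, which were taken from the sample labels. For each of 55385 genes the authors deposited the read count as a whole number, not normalized. The submitters' processing notes name Trimmomatic 0.39, STAR 2.6.1d, SAMtools 1.9, featureCounts 1.6.4 and DESeq2 1.22.2 with mm10/GRCm38. The annotation release, strand setting and treatment of multimapping reads are not given in the sources used here. From the counts, edgeR 4.0.16 (limma 3.58.1, R 4.3.3) was run with TMM factors and a quasi-likelihood fit of the 6 libraries together, on the 16951 genes that reached 10 counts in 2 or more libraries. A gene was called at an adjusted p below 0.05, and the study's added threshold was an absolute log2 fold change above 1. The fit was tested on simulated data. Depth was 23813912 to 28964706 counts, at which 3 counts are 0.102 to 0.131 CPM. Exon lengths, 3′ ends and shared windows came from GENCODE M21 transcripts, and promoters from RefSeq.

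Named members were the 12 highest by CPM per kb, those called, and the highest and lowest of each class; named listed genes were those called, at most the 4 largest fold changes per list and comparison, with Slbp, Npat, Casp8ap2, Lsm10 and Lsm11 always named. The other tested members, E2f1, Gins1, Ncbp2, H1f2 and the tested cluster genes given beside it were named after their values were seen. The naming pattern uses no measured value, but this group of genes and the gene lists were chosen with earlier results of these data known. Alternatives were DESeq2 1.42.0, its size factors, total counts only, other filters, only the libraries compared, a replicate block and each library left out. Summaries were made in Python 3.11.15.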

Additional observations from a re-analysis of the deposited data

Results flagged for a closer look

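H2bc4 was picked out because its level differed between the heterozygous and the homozygous deletion. Its fitted log2 fold change in hom against het was -0.40 (SE 0.116, adjusted p = 0.0163 with edgeR), and both hom libraries lay below both het libraries. The adjusted p over the alternative fits ran from 0.00591 to 0.134, and the difference did not pass with DESeq2 (0.107), without het replicate 2 (0.0868) or without hom replicate 2 (0.134). The fibroblast marker sum also differed between these genotypes, with a hom to het ratio of 0.716 beside 0.763 for the mean level of H2bc4. H1f2, the linker histone gene of the same cluster, differed between the deletions as well, with a log2 fold change of -0.58 (SE 0.136, adjusted p = 0.00371) and both hom libraries below both het libraries.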

How the results depend on the processing

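The fall of H2bc4 in hom against WT passed at an adjusted p below 0.05 in every alternative fit, between -0.47 and -0.69 on the log2 scale. Of 533 alternative values for 41 called differences of named genes, 507 kept direction and call, 26 were no longer called and 0 turned direction. Those 41 leave out the falls of E2f1, Gins1 and Ncbp2 in hom against WT, none of which was called by DESeq2. Without the filter on low counts, 1 member was called lower in het against WT (H3c2, adjusted p = 0.0448), and the member medians were -0.75 in hom against WT and -0.43 in hom against het. With at least 10 counts in all 6 libraries, 4 members were left, with medians of -0.14 in het against WT and -0.22 in hom against WT. The added fold threshold left 0 members lower in hom against WT and 0 in hom against het, and DESeq2 left 0 in hom against het. With each library left out in turn, members lower numbered 0 to 1 in hom against het and members higher 0 to 1 (H2bc9, without hom replicate 1, adjusted p = 0.0330), and the medians ran from -0.58 to -0.20 in het against WT, -0.77 to -0.39 in hom against WT and -0.17 to 0.16 in hom against het. Scaling by total counts only gave a het sum of 18.5 CPM against 18.2.

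Deviations of libraries with equal replicate numbers correlated between genotypes by 0.0261, -0.0944 and 0.00865, so no shared shift was seen. Whether such libraries were handled together is not given in the labels, and these correlations cannot decide it. A replicate block left the calls on members as they were (1 lower in hom against WT, 1 in hom against het, 0 in het against WT), with medians of -0.39, -0.59 and 0.11. The cause of the lost calls was not tested. At this depth 9 of the 60 members had enough counts to be tested, and why the others had few was not tested.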
